A study of Homo sapiens with 18 samples.

Results

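The nuclear-encoded subunits of respiratory complexes I to IV were followed across 18 RNA sequencing libraries of 2 human melanoma cell lines, SKMEL2 and SKMEL30. Members were taken by gene symbol: the NDUF genes of classes A, B, C, S and V, the COX4 to COX8 subunit genes, SDHA to SDHD, and 8 UQCR genes. Of 58051 genes in the table, 65 symbols matched, and 60 had a mean CPM (counts scaled to a common library total) of at least 1 in either line. These comprised 36 members of complex I, 4 of complex II, 8 of complex III and 12 of complex IV, with NDUFA4 placed in complex IV, where its product sits.

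Both lines are established NRAS-mutant melanoma lines that carry the lentiviral pTRIPZ vector with PPP2R3B under a doxycycline-responsive promoter. PPP2R3B encodes a regulatory subunit of the phosphatase PP2A. Each line gave 3 uninduced libraries, 3 libraries after 6 hours of doxycycline and 3 after 18 hours by the sample labels, where the study's text gives a slightly shorter later time. The uninduced cells carried the same vector, and no library came from cells given doxycycline without it, so the agent and the induced gene cannot be told apart. The sources do not say whether replicates were separate cultures, so p-values measure only the spread between these libraries.

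The respiratory chain passes electrons from NADH (complex I) and succinate (complex II) through ubiquinone to complex III, cytochrome c and complex IV, which reduces oxygen. Complexes I, III and IV pump protons, and the gradient drives ATP synthase. Most subunits are encoded in the nucleus and imported, while a small set comes from mitochondrial DNA, so that every complex except II is assembled from both genomes. In melanocytes and melanoma, PPARGC1A, a target of the lineage factor MITF, is known as a coactivator of respiratory genes.

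Depth ran from 13402645 to 22383470 counts per library. PPP2R3B stood between 17.2 and 24.4 CPM in the 6 uninduced libraries and between 343.0 and 617.1 CPM in the 12 induced ones, so every library matched its label of induced or uninduced. Of 8 melanocyte lineage markers, 7 stood above 100 CPM on average in both lines, and TYRP1 averaged 4.06 CPM in uninduced SKMEL2 against 1283 CPM in SKMEL30. Among markers of other cell types, CD68, which melanoma cells are known to express, averaged 46.8 CPM in uninduced SKMEL2 and 35.0 CPM in SKMEL30. The leukocyte marker PTPRC stayed under 1 CPM in both. Of 7 such markers tested, all were higher in uninduced SKMEL2, with a median log2 difference of 1.498. Of these, 6 were called higher, against 40.1% of all genes. KRT5 was among them, and its call was lost with DESeq2 (adjusted p = 0.0534). In edgeR it was lost with any 1 uninduced library left out (adjusted p between 0.0501 and 0.114). PECAM1 was also listed but is not among the values here. The 8 other listed markers summed to between 56.9 and 65.8 CPM in SKMEL2 and between 36.2 and 38.7 CPM in SKMEL30. Without CD68, 7 of these markers summed to at most 20.3 CPM in SKMEL2 and at most 2.66 CPM in SKMEL30, where CD3E was at 0. Their part in the line differences was not tested. The keratin genes KRT5 and KRT14 varied between replicates of a group, with 37.5 and 26.4 CPM in SKMEL30 6-hour replicate 3 against 0.0502 and 0.201 CPM in replicate 2. SKMEL2 was the noisier line, with a biological coefficient of variation of 8.36% against 4.11%. The members' deviations from the group mean were widest in SKMEL2 uninduced replicate 3 (SD 0.161 in log2 units, against at most 0.132 in the other libraries), and 16 of 60 lay above the mean in that library.

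Promoter sequence is shown for an isoform pair that differed most between the lines, COX7B and COX7B2, and for NDUFV1 and UQCR10, which had the lowest ratios of SKMEL2 to SKMEL30 in complexes I and III. Each run is the 250 bases before the annotated start on GRCh38.p14, from RefSeq, written 5′ to 3′ on the gene's strand with CpG dinucleotides in capitals. Their positions are chrX:77899218-77899467 (plus strand), chr4:46909246-46909495 (minus), chr11:67606686-67606935 (plus) and chr22:29767119-29767368 (plus).
COX7B: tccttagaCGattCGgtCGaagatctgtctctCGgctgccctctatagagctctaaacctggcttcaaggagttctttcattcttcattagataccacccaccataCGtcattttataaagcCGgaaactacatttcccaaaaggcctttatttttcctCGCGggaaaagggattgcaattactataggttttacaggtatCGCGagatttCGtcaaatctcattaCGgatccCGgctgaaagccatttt
COX7B2: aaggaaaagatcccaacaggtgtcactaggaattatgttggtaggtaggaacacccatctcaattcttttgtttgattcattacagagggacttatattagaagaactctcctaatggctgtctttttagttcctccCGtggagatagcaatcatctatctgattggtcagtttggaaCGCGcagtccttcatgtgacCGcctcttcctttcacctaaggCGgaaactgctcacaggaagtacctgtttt
NDUFV1: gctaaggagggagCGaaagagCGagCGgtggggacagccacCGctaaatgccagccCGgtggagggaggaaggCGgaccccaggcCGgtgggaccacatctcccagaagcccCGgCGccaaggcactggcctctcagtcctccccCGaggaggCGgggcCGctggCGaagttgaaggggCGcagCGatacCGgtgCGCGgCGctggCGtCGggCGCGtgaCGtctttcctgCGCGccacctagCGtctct
UQCR10: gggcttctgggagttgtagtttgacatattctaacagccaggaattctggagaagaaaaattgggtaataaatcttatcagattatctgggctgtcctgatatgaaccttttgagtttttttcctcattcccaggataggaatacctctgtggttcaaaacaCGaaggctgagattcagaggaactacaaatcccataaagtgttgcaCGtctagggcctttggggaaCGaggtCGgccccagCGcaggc
The COX7B window held 13 CpG dinucleotides, that of COX7B2 5, that of NDUFV1 27 and that of UQCR10 5. Over the 51 members with a listed promoter the median was 19, against 21 over 11724 promoters of tested genes. Windows were searched on both strands for motifs of factors named in the control of respiratory genes. The ETS motif CCGGAAGT, bound by the GABP factor, was in 8 of 51 members (15.7%), namely NDUFA13, NDUFS1, SDHD, UQCR11, UQCRH, UQCRQ, COX5B and COX8A, against 6.86% of promoters of tested genes and 3.64% of all 27305 promoters. The NRF1 motif GCATGCGC was in 8 members (15.7%), namely NDUFA6, NDUFB4, NDUFS6, NDUFS7, SDHB, SDHD, COX5B and COX6A1, against 4.74% and 2.81%, and the whole palindrome of which it is part was in NDUFB4 and SDHD (3.92%), against 1.89% and 1.13%. The CREB motif TGACGTCA was in NDUFA10 and NDUFB2 (3.92%), against 2.81% and 1.77%. The SP1 motif GGGGCGGGG was in 8 members (15.7%), against 25.8% and 15.4%, and the YY1 motif AAGATGGCG was in 0 of 51, against 1.07% and 0.641%. The E-box TCATGTGA, of the type MITF binds, was in 1 member, COX7B2 (1.96%), against 0.759% and 0.864%.

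The first comparison asked how the uninduced lines differ in these subunits. Most members that differed were lower in SKMEL2. With edgeR's quasi-likelihood test and Benjamini-Hochberg adjustment over 17133 genes, 43 of 60 members passed an adjusted p under 0.05, against a background of 75.9% of all genes. In SKMEL2, 38 were lower, against 35.8% of all genes, and 5 were higher, against 40.1%. The median log2 difference (SKMEL2 minus SKMEL30) was −0.30 over the members and 0.05 over all genes tested. The groups did not overlap for 45 members, against 78.3% of all genes. Without SKMEL2 uninduced replicate 3 the count was again 43, with 35 lower and 8 higher. In bulk RNA, a lower level per cell cannot be told apart from a smaller share of cells that express the gene.

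**Figure D1:**
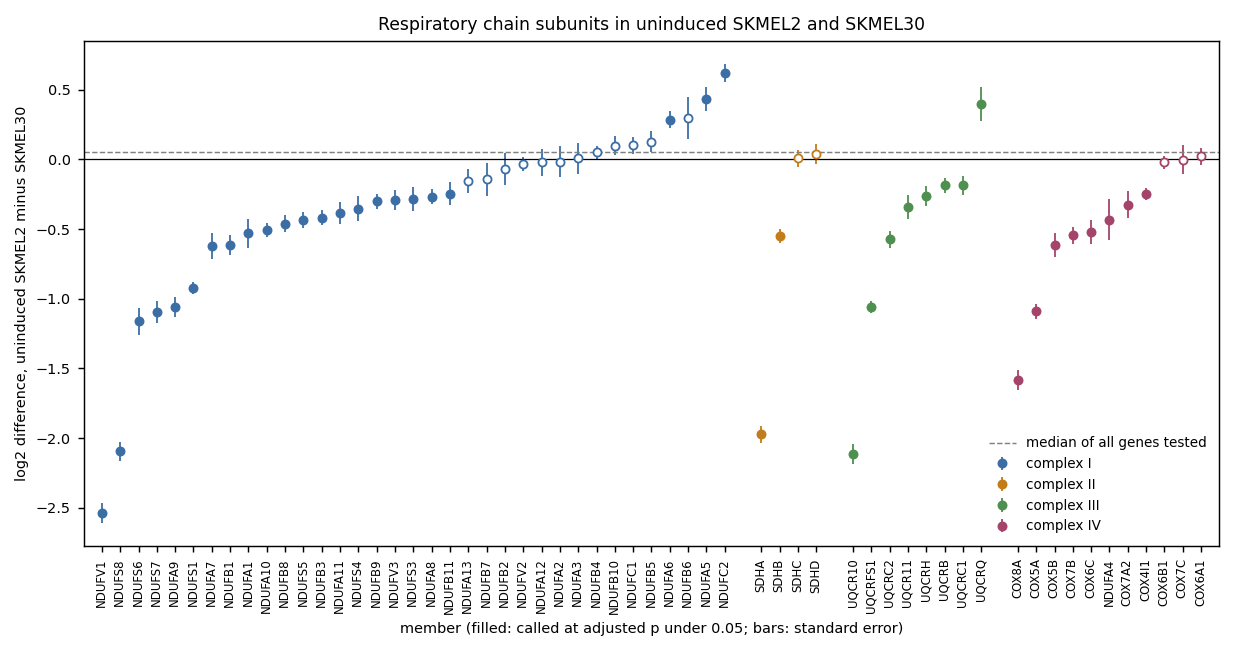
Log2 difference in level between uninduced SKMEL2 and SKMEL30 for 58 members, grouped by complex and ordered by value, with standard errors. Filled points passed an adjusted p under 0.05, and the dashed line is the median of all genes tested (0.05). COX7B2 is left out because SKMEL30 held 0 counts of it, and 1 complex I member is not shown. Most filled points lie below 0, the lowest being NDUFV1 at −2.54.

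In complex I the largest differences were in the matrix arm, which oxidises NADH. NDUFV1 (ENSG00000167792, chromosome 11, 67606936 to 67612554), the flavoprotein that binds NADH, stood at 36.8, 38.4 and 32.8 CPM in the uninduced SKMEL2 libraries and at 214.9, 210.0 and 201.0 CPM in SKMEL30. Every SKMEL2 library lay far below every SKMEL30 library. The log2 difference was −2.54 (SE 0.07, adjusted p = 4.58e-17). NDUFS8 (ENSG00000110717, chromosome 11, 68030681 to 68036644), an iron-sulphur subunit on the path to ubiquinone, stood at 22.7, 24.4 and 25.6 CPM in SKMEL2 and at 104.9, 107.6 and 98.7 CPM in SKMEL30. Its groups were likewise apart, with a log2 difference of −2.09 (SE 0.07).

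The 7 core subunits encoded in the nucleus carry the flavin, the iron-sulphur clusters and the quinone site. Of these, 6 were called lower in SKMEL2, against 35.8% of all genes, with a median of −0.92. After NDUFV1 and NDUFS8 came NDUFS7 (−1.09, SE 0.08), NDUFS1 (−0.92, SE 0.04) and, with a smaller difference, NDUFS3 (−0.28, SE 0.09). NDUFS3 was at −0.17 without SKMEL2 uninduced replicate 3, and its call was lost between the 6-hour (adjusted p = 0.0753) and the 18-hour libraries (adjusted p = 0.0984). The exception was NDUFV2, the small partner of NDUFV1 in the NADH-oxidising module, at −0.04 (SE 0.05, adjusted p = 0.532). Of these partners in 1 module, the transcript of NDUFV1 was thus called lower and that of NDUFV2 was not called. When counts were corrected for GC content and transcript length, NDUFV2 was called lower too, at −0.29 (adjusted p = 5.2e-05). It was also called lower between the 18-hour libraries (−0.13, adjusted p = 0.0276), and not between the 6-hour libraries (−0.10, adjusted p = 0.0689, edgeR).

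Of the 29 accessory subunits of complex I, 15 were lower in SKMEL2, 3 higher and 11 not called, with a median of −0.25. Of all genes, 35.8% were called lower and 40.1% higher. The lowest were NDUFS6, a zinc-binding subunit that joins late in assembly, at −1.16 (SE 0.10), and NDUFA9, which sits near the quinone site, at −1.06 (SE 0.07). NDUFS6 stood at 16.4, 17.3 and 22.8 CPM in SKMEL2 and at 43.01, 41.2 and 42.9 CPM in SKMEL30. The higher ones were NDUFC2 of the membrane arm (0.62, SE 0.07), NDUFA5 of the matrix arm (0.43, SE 0.09) and NDUFA6 (0.28, SE 0.06). NDUFC2 stood at 65.0, 70.2 and 71.3 CPM in SKMEL2 and at 43.6, 47.6 and 43.1 CPM in SKMEL30. Under the GC and length correction NDUFA6 was not called (0.06, adjusted p = 0.415).

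In complex II, which is also the succinate dehydrogenase of the citric acid cycle, the catalytic subunits differed between the lines and the membrane anchors were not called. SDHA (ENSG00000073578, chromosome 5, 218320 to 268746), the flavoprotein, stood at 32.1, 36.96 and 33.0 CPM in uninduced SKMEL2 and at 131.9, 130.3 and 139.0 CPM in SKMEL30. The log2 difference was −1.97 (SE 0.06, adjusted p = 3.23e-16). SDHB, the iron-sulphur subunit, was lower by a smaller step (−0.55, SE 0.05), while SDHC was at 0.01 (SE 0.06) and SDHD at 0.04 (SE 0.07). With the GC and length correction SDHC and SDHD were both at −0.19 and called (adjusted p = 0.00194 and 0.0129), while without SKMEL2 uninduced replicate 3 SDHD was called higher in SKMEL2 (0.14, adjusted p = 0.0413).

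SDHA shares sequence with 4 named pseudogenes, to which the authors' counting assigned a large part of the reads. They held 43.4% of the summed counts in SKMEL2 and 22.4% in SKMEL30. With gene and pseudogenes summed, the log2 difference was smaller, at −1.502 (adjusted p = 1.4e-16). Whether the pseudogene counts came from SDHA transcripts was not tested. The next largest share was that of UQCRFS1, at 7.36% and 7.38%, and NDUFV2 had 1.27% in SKMEL2.

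All 8 members of complex III were called, 7 lower in SKMEL2 and UQCRQ higher, where 75.9% of all genes were called. UQCR10 (ENSG00000184076, chromosome 22, 29767369 to 29770413), a small subunit at the edge of the complex, stood at 12.8, 11.9 and 14.7 CPM in SKMEL2 and at 57.8, 55.7 and 57.8 CPM in SKMEL30. The log2 difference was −2.11 (SE 0.07, adjusted p = 1.16e-15). UQCRFS1, the Rieske iron-sulphur protein, was at −1.06 (SE 0.04) and the core protein UQCRC2 at −0.58 (SE 0.06). The other core protein, UQCRC1, and the ubiquinone-binding UQCRB were lower by the smallest steps, both at −0.19 (SE 0.07 and 0.05).

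UQCRQ, which lies beside cytochrome b, was at 0.40 (SE 0.12, adjusted p = 0.00618). Its libraries stood at 90.5, 99.9 and 69.3 CPM in SKMEL2 and at 66.6, 63.1 and 67.0 CPM in SKMEL30. The lowest SKMEL2 library, replicate 3, lay just above the highest of SKMEL30. The call was lost without SKMEL2 uninduced replicate 2 (0.27, adjusted p = 0.0667) and with the GC and length correction (0.24, adjusted p = 0.0872).

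In complex IV, 8 of 12 members were lower in SKMEL2, 1 was higher and 3 were not called. Of all genes, 35.8% were called lower and 40.1% higher. COX8A (ENSG00000176340, chromosome 11, 63974620 to 63976543), the smallest subunit, stood at 52.3, 56.1 and 46.6 CPM in SKMEL2 and at 156.5, 157.0 and 150.6 CPM in SKMEL30. The log2 difference was −1.58 (SE 0.07, adjusted p = 6.84e-14). COX5A, which with COX4I1 joins the catalytic core early in assembly, was at −1.09 (SE 0.05), COX5B at −0.62 (SE 0.09) and COX4I1 at −0.25 (SE 0.04).

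Several complex IV subunits have a pair of isoforms, one broadly expressed and one known from muscle, lung or testis. In these libraries the second isoform was mostly missing. COX4I2 and COX6A2 had 0 counts in every library, and COX6B2, COX7A1 and COX8C had at most 3, which left these 5 genes outside the 60 members. Of the broad partners, COX6A1 (0.02, SE 0.06) and COX6B1 (−0.02, SE 0.05) were not called, and COX7A2 was lower in SKMEL2 (−0.33, SE 0.10). COX7A2 was at −0.19 without SKMEL2 uninduced replicate 3, and its call was lost between the 6-hour libraries (−0.20, adjusted p = 0.0684).

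COX7B2 (ENSG00000170516, chromosome 4, 46734827 to 46909245) was the exception, the testis-known partner of COX7B present in one line and not detected in the other. It stood at 23.0, 21.3 and 14.5 CPM in uninduced SKMEL2 and had 0 counts in all 3 uninduced SKMEL30 libraries. Against a floor of 3 counts per library, its lowest SKMEL2 library was at least 76.2-fold higher. It was the only member under 1 CPM in a line. The broad partner COX7B (ENSG00000131174) stood at 58.7, 69.6 and 63.0 CPM in SKMEL2 and at 93.4, 93.4 and 92.8 CPM in SKMEL30, a log2 difference of −0.55 (SE 0.06). Transcripts of both genes were thus detected in uninduced SKMEL2, and of COX7B in uninduced SKMEL30.

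The lines were also compared at the later times. Between the 6-hour libraries of both lines 41 members were called, 32 lower and 9 higher in SKMEL2, against 75.4% of all genes. Between the 18-hour libraries 43 were called, 35 lower and 8 higher, against 75.1%. With the uninduced comparison they shared 37 and 39 members called in the same direction. At 6 hours NDUFB11 (−0.25 uninduced) and UQCRC1 (−0.19 uninduced) were at 0.04 and 0.00 and not called. COX7B2 stood between 18.95 and 22.4 CPM at 6 hours and between 19.9 and 20.6 CPM at 18 hours in SKMEL2, with 0 counts in SKMEL30 apart from 1 count in 1 18-hour library.

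**Figure D2:**
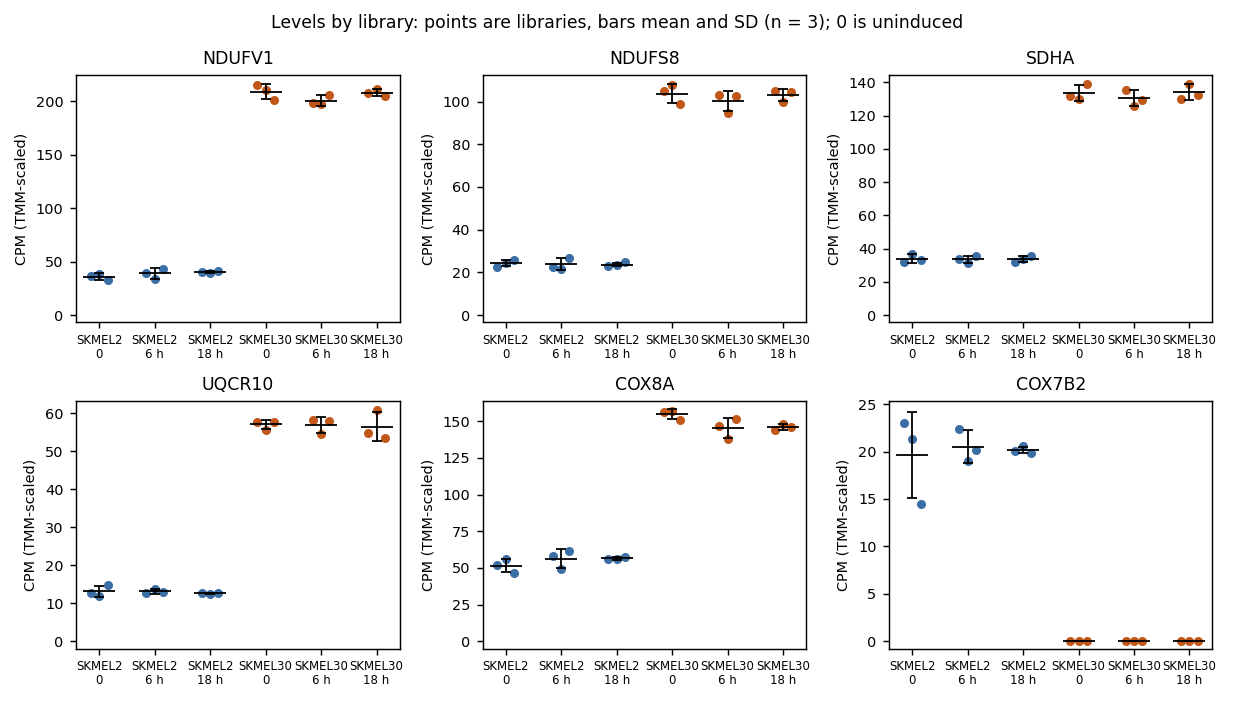
Level of 6 members in each of the 18 libraries, as CPM on the TMM scale, by line and hours of doxycycline. Points are libraries and bars the mean and SD of 3. NDUFV1, NDUFS8, SDHA, UQCR10 and COX8A are lower in every SKMEL2 library than in any SKMEL30 library, and COX7B2 is near 20 CPM in SKMEL2 and at or next to 0 in SKMEL30.

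Summed over the members of each complex, CPM in uninduced SKMEL2 and SKMEL30 were 1850 ± 84.0 and 2476 ± 14.0 (SD, n = 3) for complex I, and 357 ± 23.3 and 502 ± 18.2 for complex II. For complex III they were 663 ± 48.6 and 858 ± 7.68, and for complex IV 890 ± 79.98 and 1202 ± 2.11. In each complex the SKMEL2 libraries lay below those of SKMEL30. The 11 mitochondrially encoded subunits measured beside them summed to 57748 ± 13531 CPM in SKMEL2 and 56451 ± 1955 CPM in SKMEL30, and those groups overlapped. SKMEL2 uninduced replicate 3 had the highest mitochondrial sum of its group (73347 CPM) and the lowest complex IV sum.

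**Figure D3:**
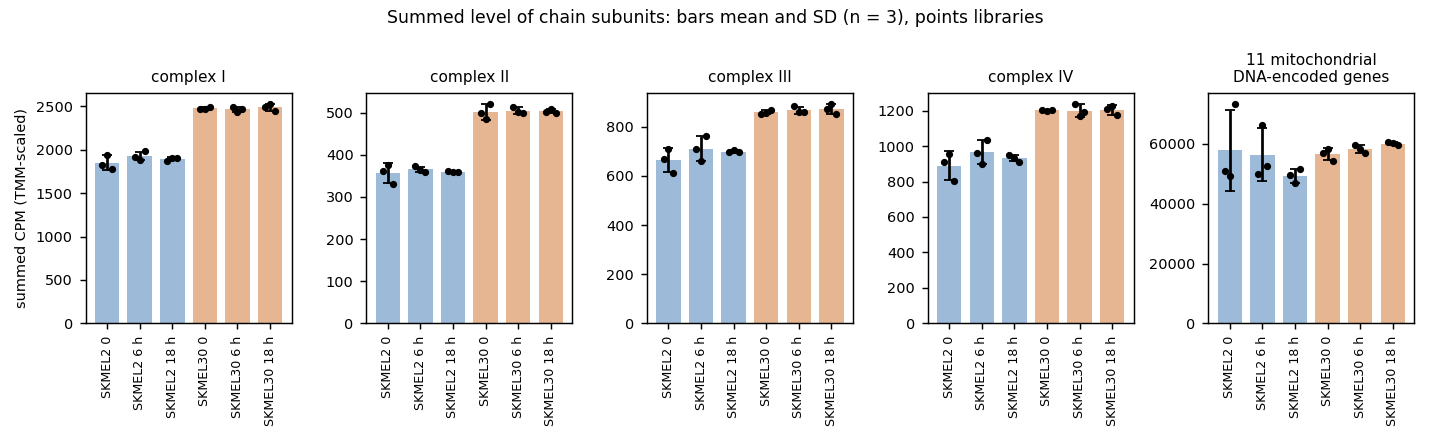
Summed CPM (TMM scale) of the members of complexes I to IV and of 11 subunits encoded in mitochondrial DNA, by line and hours of doxycycline. Bars are means with the SD of 3 libraries and points are libraries. The nuclear sums are lower in SKMEL2 and similar across times within a line, and the mitochondrial sums overlap between the uninduced lines.

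Other genes of the pathway were read from lists of known function. The share of all genes called lower in SKMEL2 was 35.8%, and that called higher 40.1%. The 4 chain genes outside the symbol rule that could be tested were all lower in SKMEL2: COX7A2L (−0.95), CYC1 of complex III (−0.48), cytochrome c CYCS (−0.42) and NDUFAB1 (−0.25). Of 20 ATP synthase subunits 13 were lower and 4 higher, with ATP5MC3 of the proton-carrying ring at −1.52 and ATP5F1D at −1.31. Of 14 citric acid cycle enzymes 10 were lower and 2 higher, with IDH2 at −2.03 and MDH2 at 0.27. Of 50 assembly factors 19 were lower and 19 higher, with a median of 0.04, and they ranged from COA4 at −1.73 to TIMMDC1 at 1.18. Of 11 mitochondrially encoded chain subunits 2 were lower (MT-ND1 at −0.41 and MT-CO1 at −0.23) and 3 higher (MT-CYB at 0.75, MT-ND3 at 0.68 and MT-ND2 at 0.44). The calls for MT-ND1 and MT-CO1 were lost without SKMEL2 uninduced replicate 1 (−0.25 and −0.17) or 2 (−0.29 and −0.15), among other alternatives. Without replicate 3 the values were −0.75 and −0.39, both called. Between the 18-hour libraries the calls for MT-CYB (0.15, adjusted p = 0.221) and MT-ND3 (0.18, adjusted p = 0.12) were lost (edgeR).

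Of 13 regulators of respiratory genes, 8 were lower in SKMEL2 and 3 higher, against 35.8% and 40.1% of all genes. PPARGC1A stood at 2.33, 1.94 and 2.86 CPM in uninduced SKMEL2 and at 33.5, 34.4 and 37.9 CPM in SKMEL30, a log2 difference of −3.88 (SE 0.17, adjusted p = 7.83e-14). ESRRA, a nuclear receptor that partners with it, stood at 19.05, 22.2 and 16.4 CPM in SKMEL2 and at 68.4, 76.9 and 69.7 CPM in SKMEL30, a difference of −1.90 (SE 0.11). The uninduced groups of both genes did not overlap, as held for 78.3% of all genes. NRF1 (−0.36, SE 0.09) and TFAM, which packages mitochondrial DNA and helps start its transcription (−0.40, SE 0.06), differed by less. GABPA was at 0.23 (SE 0.08). Its call was lost with the GC and length correction (0.11, adjusted p = 0.0617) and between the 6-hour libraries (0.14, adjusted p = 0.11). Without SKMEL2 uninduced replicate 1 it was lost too (0.19, adjusted p = 0.0533, edgeR). MITF was lower in SKMEL2 as well (−0.97, SE 0.05). The part of these regulators in the members' levels was not tested.

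The members lie on 20 chromosomes, and a position was found for 59 of them. For each, the line difference was set beside the median of the 10 tested genes on either side that were not members. NDUFV1 and NDUFS8 lie 418126 bases apart on chromosome 11 with windows that overlap, and their neighbours had medians of −2.19 (18 of 20 lower in SKMEL2) and −1.69 (17 of 20). Around UQCR10 on chromosome 22 the median was −1.44, with 19 of 20 lower. NDUFS6 and SDHA lie 1532660 bases apart at one end of chromosome 5, with neighbour medians of −1.24 (18 of 20 lower) and −0.88 (9 of 11). Around COX8A the median was −0.94, with 17 of 20 lower. The members with the lowest ratio in each complex thus stood among neighbours outside the member list, most of which were also lower in SKMEL2. The function of these neighbours was not examined.

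Over 58 members without COX7B2, Pearson's r between a member and its neighbours' median was 0.814 and Spearman's rho 0.661, as a description, since nearby members share neighbours and all points come from the same libraries. Over 14851 genes r was 0.266 and rho 0.390, with windows and genes taken otherwise. There members stayed among the neighbours, and genes with fewer than 10 tested genes on a side were left out. Other genes at or near 0 in a line were kept, unlike COX7B2. The values are thus not like for like. A neighbour median of −0.5 or lower was found for 10 of 59 members and, with those other windows, for 12.8% of all genes. Members that were lower while their neighbours' median was above 0 included NDUFA9 (−1.06 among neighbours at 0.22), UQCRFS1 (−1.06 among neighbours at 0.37) and UQCRC1 (−0.19 among neighbours at 0.44). Copy number was not measured in these libraries, and its part was not tested.

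**Figure D4:**
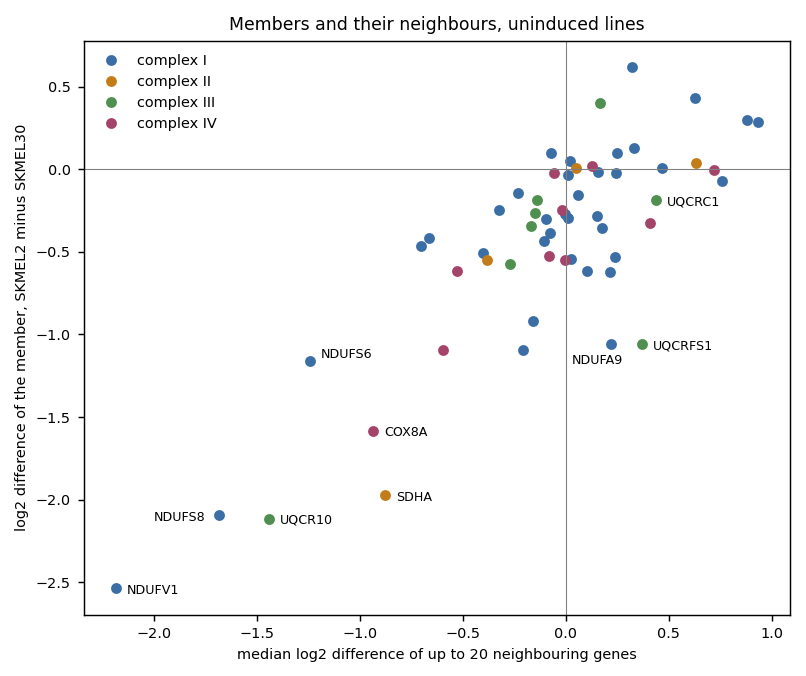
Log2 difference of each of 58 members between uninduced SKMEL2 and SKMEL30 (vertical) against the median log2 difference of up to 20 neighbouring tested genes that are not members (horizontal), coloured by complex. NDUFV1, NDUFS8, UQCR10, NDUFS6, SDHA and COX8A lie at the lower left, and NDUFA9 and UQCRFS1 are low while their neighbours are above 0.

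The second question was whether induction of PPP2R3B moved these subunits. No member was called at either time in either line. In SKMEL2, 0 of 60 members passed at 6 hours and 0 at 18 hours, against a background of 0.0124% of genes at each time, with 3 and 1 members at an unadjusted p under 0.05. In SKMEL30, where 59 members could be tested, 0 passed at 6 hours, against 0.206% of genes (0.0932% higher and 0.113% lower), and 0 at 18 hours, against 0.293% (0.173% higher and 0.12% lower), with 6 and 5 members at an unadjusted p under 0.05. Over all genes, an unadjusted p under 0.05 (edgeR) was found for 543 and 750 of 16120 in SKMEL2. In SKMEL30 it was found for 968 and 1374 of 15026. With so few calls among all genes, the counts of members called do not set them apart. DESeq2 also called 0 members in each of the 4. With no filter on low counts 1 member was called, NDUFA5 in SKMEL30 at 18 hours (0.18, adjusted p = 0.0238).

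The intervals bound how large a shift could have gone unseen. In SKMEL30 the 95% intervals of all 59 members lay within 0.5 log2 units of 0 at both times, from −0.31 to 0.31 at their widest. In SKMEL2 this held for 56 of 60 members at 6 hours and 58 at 18 hours. The exceptions were NDUFB6, NDUFB7, UQCRQ and NDUFA4 at 6 hours and NDUFB6 and NDUFA4 at 18 hours. NDUFB6, a membrane-arm subunit with the highest bound (0.64 and 0.65), stood at 36.5, 33.5 and 21.7 CPM uninduced, at 39.6, 27.3 and 40.4 CPM at 6 hours and at 37.8, 38.4 and 32.0 CPM at 18 hours. The 3 groups overlapped, and the lowest libraries were uninduced replicate 3 and 6-hour replicate 2.

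**Figure D5:**
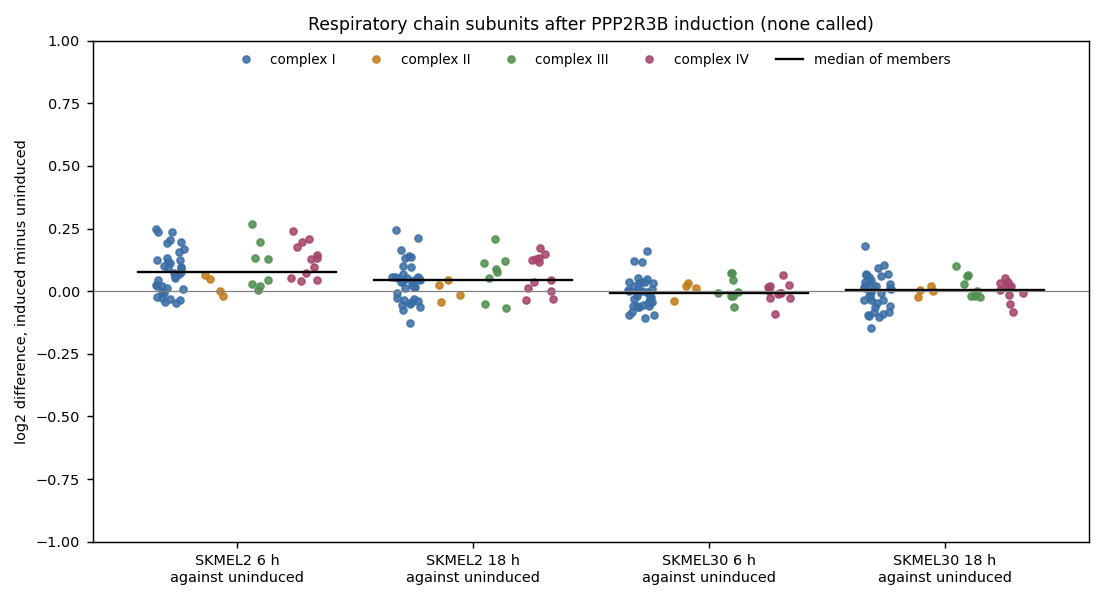
Log2 difference of each member between induced and uninduced cells in SKMEL2 and SKMEL30 at 6 and 18 hours, coloured by complex, with the median of the members as a black line. None was called. The SKMEL2 points at 6 hours lie mostly above 0, with a median of 0.07, and those of SKMEL30 lie on both sides of 0.

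In SKMEL2 at 6 hours 51 of 60 members had a difference above 0, where 8200 of 16120 genes did, and the median was 0.07 against 0.00 over all genes. All 12 members of complex IV and all 8 of complex III were on that side. The shift depended on single uninduced libraries: the median was 0.04 without replicate 3 and 0.13 without replicate 2, with between 42 and 54 members above 0 over the libraries left out. At 18 hours 42 of 60 were above 0 (median 0.04), and without uninduced replicate 3 the median was −0.00 with 30 above 0. In SKMEL30, 27 of 59 were above 0 at 6 hours (median −0.01) and 33 at 18 hours (median 0.01). Summed CPM of all members in SKMEL2 was 3760 ± 230.0 uninduced, 3968 ± 160.9 at 6 hours and 3884 ± 13.8 at 18 hours (SD, n = 3). In SKMEL30 it was 5038 ± 40.4, 5036 ± 84.9 and 5067 ± 92.0.

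Among single members, UQCRFS1 had the smallest p in SKMEL2 at both times. It stood at 49.3, 51.5 and 49.0 CPM uninduced, at 57.5, 57.1 and 57.0 CPM at 6 hours and at 55.8, 58.0 and 60.0 CPM at 18 hours. Every induced library lay above every uninduced one, and the log2 difference was 0.20 (SE 0.06) at 6 hours and 0.21 (SE 0.06) at 18 hours. Neither value passed the adjustment over all genes (unadjusted p = 0.00572 and 0.00372, adjusted p = 0.989 and 0.859, edgeR). In SKMEL30 it stood at 101.9, 106.6 and 103.8 CPM uninduced, at 112.6, 108.0 and 108.2 CPM at 6 hours and at 109.1, 109.0 and 107.4 CPM at 18 hours, with a difference of 0.07 (SE 0.03) at 6 hours.

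In SKMEL30 the smallest p belonged to NDUFA5, at 0.16 (SE 0.06, unadjusted p = 0.0169, adjusted p = 0.656) at 6 hours and 0.18 (SE 0.06, unadjusted p = 0.00909, adjusted p = 0.348) at 18 hours. It stood at 58.7, 55.8 and 49.0 CPM uninduced, at 62.4, 63.4 and 57.8 CPM at 6 hours and at 64.0, 60.8 and 60.7 CPM at 18 hours. The 6-hour libraries overlapped the uninduced ones and the 18-hour libraries did not. Without SKMEL30 uninduced replicate 3, NDUFA5 was at 0.09 and 0.11. COX8A was at −0.09 (−0.05 without 6-hour replicate 2) and −0.08, NDUFS6 at 0.12 at 6 hours and UQCRB at 0.10 at 18 hours, all with adjusted p between 0.388 and 0.731 in edgeR. Members whose induced and uninduced libraries did not overlap numbered 3 at 6 hours and 5 at 18 hours in SKMEL2, against 6.8% and 14.3% of all genes, and 9 and 13 in SKMEL30, against 11.3% and 16% of all genes. Between 18 and 6 hours the groups of 2 members did not overlap in SKMEL2 and those of 6 in SKMEL30, against 7.85% and 11.1% of all genes.

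Between 18 and 6 hours 0 members were called in SKMEL2, against 0% of genes, and 0 in SKMEL30, against 0.02%. At an unadjusted p under 0.05 (edgeR) were 0 and 1 members, against 418 of 16120 and 835 of 15026 genes. The difference between the lines in response was tested as an interaction over 17133 genes, and 0 of 60 members were called at 6 hours, against 0% of genes, and 0 at 18 hours, against 0.00584%. At an unadjusted p under 0.05 (edgeR) stood 3 members at each time, against 842 and 884 of 17133 genes. The smallest p was that of NDUFS7 at both (0.29, SE 0.11 and 0.30, SE 0.11, SKMEL2 response minus SKMEL30 response, adjusted p = 0.902 and 0.895), and without SKMEL2 6-hour replicate 3 its 6-hour value was 0.15.

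The mitochondrially encoded partners gave another picture in SKMEL30, where 0.0932% of all genes were called higher at 6 hours and 0.173% at 18 hours. Of 11 chain subunits, 4 rose at both times in the fit of that line: MT-CYB of complex III by 0.35 and 0.46, and MT-ND3, MT-ND2 and MT-ND1 of complex I by 0.29, 0.18 and 0.16 at 6 hours and by 0.40, 0.26 and 0.20 at 18 hours. MT-CYB stood at 3414, 3499 and 3303 CPM uninduced, at 4409, 4216 and 4360 CPM at 6 hours and at 4691, 4619 and 4703 CPM at 18 hours. The 3 groups did not overlap. Its nuclear-encoded partners in complex III were not called, UQCRFS1 at 0.07 among them. The ATP synthase genes MT-ATP6 and MT-ATP8 rose by 0.36 and 0.40 at 6 hours and by 0.43 and 0.46 at 18 hours. In a fit of all 18 libraries, whose spread includes the noisier SKMEL2, 0 of these 12 values were called (adjusted p between 0.404 and 1). At 6 hours the calls of MT-ND1 and MT-ND2 were also lost with the GC and length correction (adjusted p = 0.0609 and 0.0595), with only the compared groups in the fit (adjusted p = 0.103 and 0.0639), with all 18 libraries in 1 fit, and without single libraries, among them SKMEL30 uninduced replicate 1 (adjusted p = 0.115 and 0.0542) and 6-hour replicate 1 (adjusted p = 0.12 and 0.0798). Without uninduced replicate 3 that of MT-ND2 was lost (adjusted p = 0.05002), and without 6-hour replicate 3 that of MT-ND1 (adjusted p = 0.137). In SKMEL2 no mitochondrially encoded gene was called, and MT-CYB stood at 5074, 4841 and 7247 CPM uninduced. At 18 hours all 11 chain subunits had a difference below 0 in SKMEL2, with a median of −0.25. Of these, 3 were at an unadjusted p under 0.05 (edgeR), against 750 of 16120 genes. In the interaction at 18 hours all 11 were below 0 too, with a median of −0.35 and 0 called. There 5 were at an unadjusted p under 0.05 (edgeR), against 884 of 17133 genes. The summed CPM of the 11 in SKMEL2 was 50728, 49170 and 73347 uninduced and between 46773 and 51489 at 18 hours. The high uninduced replicate 3 enters both comparisons, and no value without it is given for these genes. Of the 50 assembly factors, 13 regulators and 14 citric acid cycle enzymes, 0 were called after induction in either line in edgeR, with at most 2 of a list at an unadjusted p under 0.05.

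Among replicates the members varied less than genes at large. The median coefficient of variation within a group was 7.7%, 8.46% and 3.36% in SKMEL2 (uninduced, 6 hours and 18 hours) and 2.83%, 3.59% and 3.08% in SKMEL30. Over all genes tested it ran from 5.88% to 11.8%, a set that includes genes of lower level. In SKMEL2 uninduced replicate 2, 55 of 60 members lay above the group mean, and in 6-hour replicate 3, 42. Where another gene overlaps a member, reads may have been shared, since the sources do not say whether counting used strand. Such genes reached 10% of the member's level for NDUFA2, NDUFA3, NDUFB11, NDUFC1 and NDUFS6.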

How the data were processed

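Per the labels and the study's methods, RNA was extracted with RNeasy, libraries were made with the KAPA mRNA HyperPrep kit, and reads of 43 bases were aligned to GRCh38 with STAR and counted with RSEM 1.3.0. The submitters' notes name STAR 2.2.2a, cutadapt 1.5 and Trimmomatic 0.36, and the study's methods STAR 2.5.2a and Cutadapt 1.9.1 with Ensembl release 86. The deposited values are the authors' expected counts per gene, with no scaling for depth, and 30.6% of the values above 0 are not whole numbers (tolerance 0.005), since RSEM can divide reads that align to several genes. Depth was taken as the total per library, and intervals and floors cover what replicates and counts show. All 18 columns matched a sample by label.

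Expected counts were rounded and tested in edgeR 4.0.16 (R 4.3.3, limma 3.58.1) with filterByExpr, TMM, glmQLFit and glmQLFTest, with group means only. Lines were compared, and responses between lines, in a fit of 18 libraries (17133 genes), and induction in a fit of each line's 9 libraries (16120 and 15026 genes). Calls were made where the p, adjusted by Benjamini-Hochberg over all genes tested, was under 0.05. The SE is the log2 difference divided by the square root of F, and intervals are 95%. CPM were scaled by TMM over 18 libraries and are compared within a gene only. COX7B2 was filtered out of the SKMEL30 fit. Symbols were matched by gene ID for 55604 of 58051 genes, and positions and promoters are from RefSeq on GRCh38.p14. The steps were tested on simulated data.

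The members and lists were chosen with earlier results of these data known. Named genes were PPP2R3B, the 3 called members with the largest difference each way in complexes I, III and IV, complex II, isoform pairs, core subunits of complex I, the 3 smallest p in each induction comparison, called genes of other lists, the 2 largest of a list each way, and PPARGC1A, NRF1, GABPA, ESRRA, TFAM, CYC1 and CYCS. Members named only for their interval, a motif, their neighbours or an overlapping gene, and MITF, NDUFAB1, KRT14, CD68, PTPRC and CD3E, fall outside this rule and were named after their values were seen. The NRF1 motif was searched whole and then also in the shorter form. Alternatives were DESeq2 1.42.0, RLE factors, 2 other filters, a replicate block, a correction for GC content and length, thinning, other sets of libraries and each library left out. After seeing the data, the later libraries of both lines and counts summed with pseudogenes were added. Deviations from the group means correlated above 0.1 for 3 of 9 same-numbered library pairs in SKMEL2 (range −0.15 to 0.22) and for 2 of 9 in SKMEL30 (range −0.02 to 0.14). Replicate numbers were therefore not taken as pairs. The values of 1 complex I member are not reported here, though it is counted among the members.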

Additional observations from a re-analysis of the deposited data

How the results depend on the processing

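Between the uninduced lines, 41 to 47 members were called over the alternatives, and 42 to 44 with 1 library left out. The calls ran to 47 with the correction for GC content and length (4 higher, 43 lower in SKMEL2), 45 when each library had to hold 10 counts or more, and 43 with DESeq2, RLE factors or the replicate block. The block is not backed by a pairing in the labels or the data, and it called 0 members in every induction comparison, as the fit without it did. After induction, 0 members were called under every alternative run except no filter on low counts, which called 1 in SKMEL30 at 18 hours (NDUFA5), and the cause was not tested. The median log2 difference of the members between the lines moved from −0.30 to −0.39 with the GC and length correction, to −0.25 under that stricter filter and to −0.20 in the 6-hour libraries. Several members changed sign, among them NDUFB11 and UQCRC1, called lower in SKMEL2 when uninduced and at 0.039 and 0.00095 in the 6-hour libraries. COX6B1 was at 0.028 and NDUFV2 at 0.015 when each library had to hold 10 counts or more. COX6A1 was at −0.074 with the replicate block and at −0.070 with the GC and length correction, which put SDHC at −0.19, SDHD at −0.19 and the citric acid cycle gene SUCLG2 at −0.00136. With 1 library left out, SDHC ran from −0.058 to 0.083, SDHD from −0.046 to 0.14 and COX6A1 from −0.028 to 0.055. In the 6-hour libraries SUCLG2 was at −0.021 and KRT5 at −3.42. The cause of these changes was not tested. Depth limits statements on COX7B2 in SKMEL30 and on the 5 isoforms outside the members, where at most 3 counts were seen, and the spread between SKMEL2 libraries limits the induction comparisons in that line.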
